A study of Rattus norvegicus with 23 samples.

Results

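The 200 genes described here differed most from rat to rat among 6 saline control rats (Ct) in RNA from the dorsal striatum. They were the genes with the largest standard deviation (SD) of log2(CPM + 1) over the 6 Ct libraries, where CPM is the count of a gene scaled to a library of 1000000 counts. They were taken from 11245 genes with a mean of at least 5 CPM in Ct that lie outside the mitochondrial genome and the X and Y chromosomes, of 32552 genes listed, and 5 listed identifiers were dropped before ranking. The genes were thus selected on the CPM values of the Ct rats, so every value from Ct below is a description, and the comparisons with Ct are given near the end as counts that support nothing. The measures that the choice did not use are the values of 17 rats that had self-administered methamphetamine (METH).

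The dorsal striatum receives input from the cortex and dopamine from the midbrain, and is known for its part in habit and in drug taking that goes on despite punishment. Animals of 1 stock differ little in the level of most genes of a tissue and widely in that of a few. Long Evans rats are an outbred stock, so unrelated rats carry different alleles. Genes of the major histocompatibility complex (MHC), which presents peptides to immune cells, are among the most variable between animals, and in the rat this complex lies near the start of chromosome 20. In RNA from whole tissue, fewer cells of a type and less RNA per cell cannot be told apart.

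All rats were adult male wild type Long Evans rats, with 1 library per rat. The 6 Ct rats pressed for saline and received no footshocks. The other rats pressed for METH at 0.1 mg/kg per infusion for 22 days, received footshocks on 8 days that began at 0.18 mA and ended at 0.36 mA, were kept abstinent for 15 days, took METH again for 12 days, received 0.30 mA footshocks on 3 days and were kept abstinent for another 15 days before tissue was taken 24 h after the last relapse test. The 6 SR rats kept taking METH in both footshock phases (always shock-resistant, ASR in the study), the 5 RSR rats cut their intake in the first phase only (delayed shock-resistant, DSR), and the 6 SS rats cut it in both (always sensitive, AS). The groups were formed from what the rats did and not by allocation, and the Ct rats differ from the others in both METH and footshock. Each rat is named by its group and a code, whose Grp7 or Grp8 the labels do not explain. Grp7 held 4 Ct, 3 SR, 2 RSR and 4 SS rats, and Grp8 held 2 Ct, 3 SR, 3 RSR and 2 SS rats.

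Libraries held between 18967015 and 28137676 counts. Mitochondrial transcripts took from 11.6% to 15.9% of the counts in 22 libraries and 19.6% in SS Grp7-R1. Over the 55 pairs of libraries within a group, the chi-square per gene was at least 6.60, so no pair agreed within sampling noise. Genes have an Ensembl identifier and an Rnor6.0 position in the files, and no symbol. Genes are therefore given by identifier and place, their functions are not stated, and the marker genes of the striatum and of neighbouring tissues were not checked.

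The SD of the 200 genes among the Ct rats ran from 0.56 to 2.18, with a median of 0.69, beside a median of 0.15 over all 11245 genes. In the median gene of the 200, the highest Ct rat held 4.09 times the CPM of the lowest, and the smallest such ratio was 2.40. Poisson counting error at the mean count of a gene amounted to a median of 10.4% of its SD and at most 19.2%, so the counts were deep enough to resolve these differences. The last gene inside the list, ENSRNOG00000036869, had an SD of 0.5641 and the first outside, ENSRNOG00000000010, had 0.5639. The edge of the list is therefore not a step in the data.

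The same genes also differed among METH rats, which the choice did not use. The median SD of the 200 genes was 0.48 among SR rats, 0.62 among RSR rats and 0.36 among SS rats, while the median over all genes was 0.13 in each METH group. The 200 genes made up 1.78% of the genes ranked. When all 11245 genes were ranked by SD within each METH group, 98 of the 200 stood among the top 200 in SR, 102 in RSR and 61 in SS. Of these, 28 genes were in the top 200 of all 3 METH groups, 140 in at least 1 and 60 in none. Most genes of the list varied more than the median gene in every METH group, namely 198 of 200 in SR, 199 in RSR and 197 in SS. One SR rat weighed on its count, because without SR Grp8-R7 the number in the SR top 200 was 60 and the median SD in SR was 0.35.

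**Figure D1:**
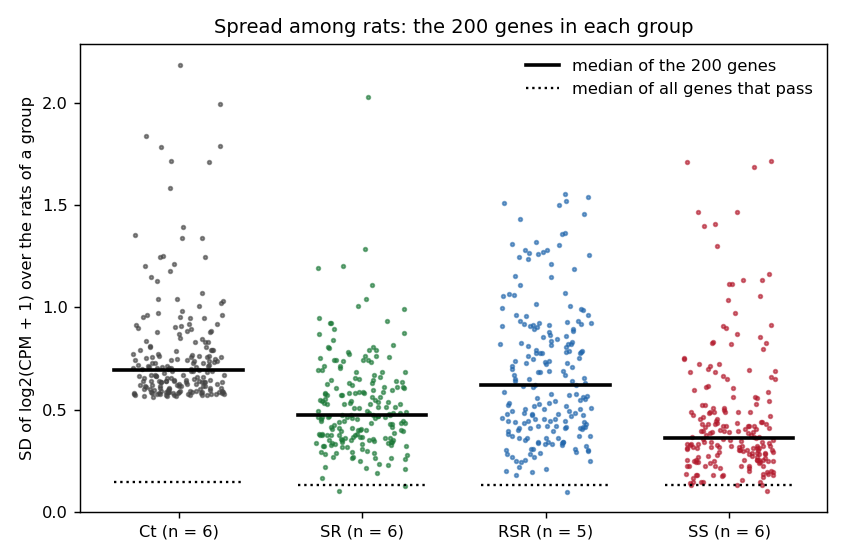
Spread of the 200 genes among the rats of each group. Each point is the SD of log2(CPM + 1) of 1 gene over the rats of the group on the x axis, the solid bar is the median of the 200 genes and the dotted bar the median of all 11245 genes. The Ct points stop at 0.56 because Ct chose the genes, and the solid bars of SR (0.48), RSR (0.62) and SS (0.36) lie above the dotted bars.

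A few Ct rats carried most of the spread. For each gene the Ct rat farthest from the median of the 6 was noted. This rat was Ct Grp7-R5 for 73 genes, Ct Grp8-L11 for 65, Ct Grp7-L7 for 26, Ct Grp7-R12 for 22, Ct Grp7-R6 for 10 and Ct Grp8-R11 for 4. Ct Grp7-R5 was the highest of the 6 rats in 100 genes, and Ct Grp8-L11 was the lowest in 95. Ranking without Ct Grp7-R5 kept 146 of the 200 genes, and ranking without Ct Grp8-L11 kept 147.

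Most of the genes varied together rather than one by one. Clustering on their correlation over the 6 Ct rats gave 4 blocks of at least 8 genes, here called A (103 genes), B (35 genes), C (14 genes) and D (13 genes), and left 35 genes outside any block. The blocks were built on Ct, so their tightness there is by construction. In the 17 METH rats, after each group mean was taken out, the median Pearson correlation between 2 genes of the same block was 0.77 in A, 0.65 in B, 0.80 in C and 0.86 in D. It was 0.02 over all pairs of the 200 genes and 0.09 over all pairs of the 11245 genes. These correlations are over rats whose libraries differ in depth and composition, genes of a block are not independent of each other, and no p is given for them. Genes outside the list also followed the block levels, many for A and few for D. Among the 11045 genes outside the list, 655 followed the level of block A in the METH rats with a correlation of at least 0.8, as did 273 for B, 109 for C and 7 for D. Of the blocks' own genes 82 of 103 did so in A, 19 of 35 in B, 11 of 14 in C and 11 of 13 in D. A block's own genes enter its level, so these counts cannot be set against those of the genes outside the list. How many genes would reach 0.8 with any other level over 17 rats was not tested.

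**Figure D2:**
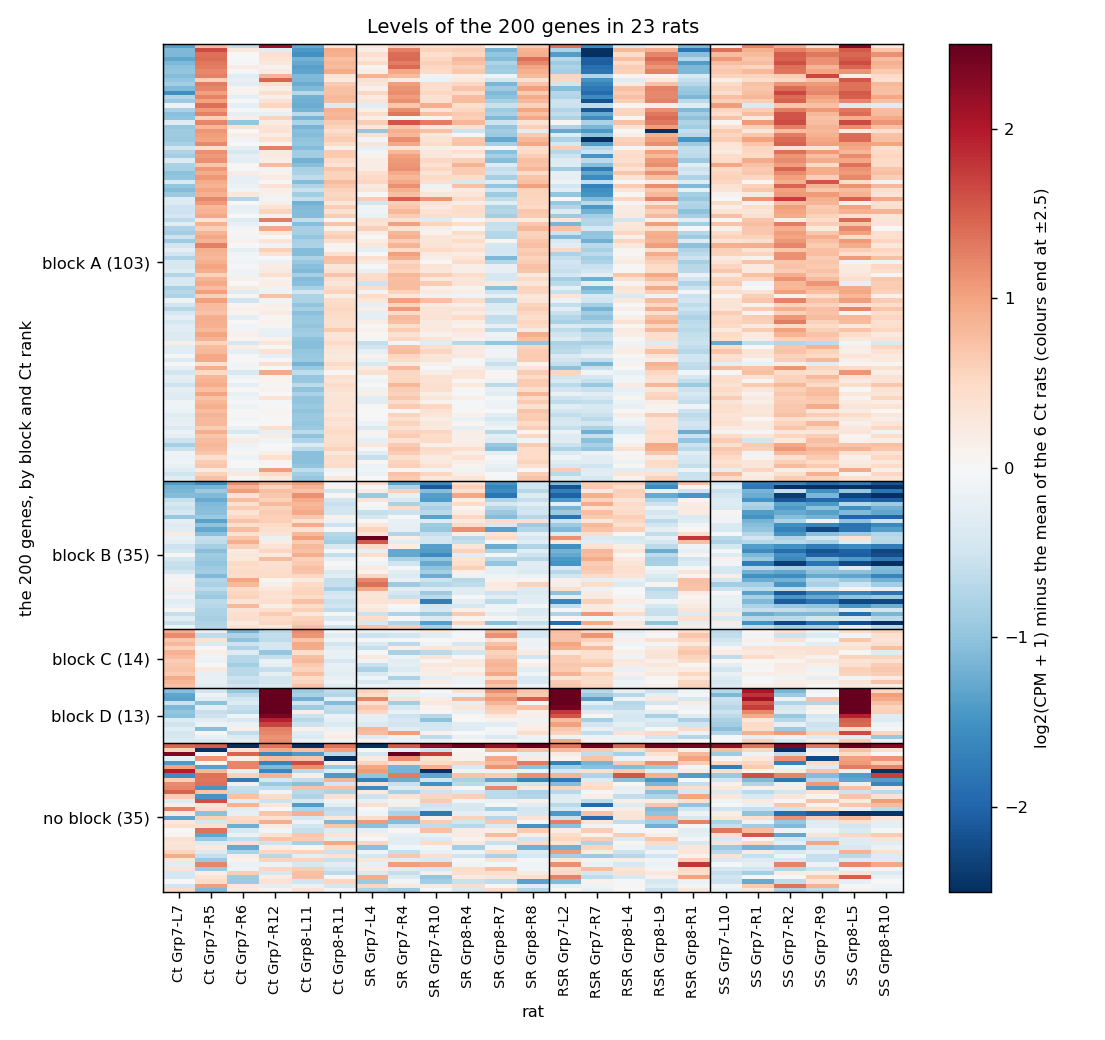
Levels of the 200 genes (rows, ordered by block and by rank of the Ct SD) in the 23 rats (columns, by group). The colour is log2(CPM + 1) minus the mean of the 6 Ct rats for that gene. Block A is red in Ct Grp7-R5 and all 6 SS rats and blue in Ct Grp8-L11 and RSR Grp7-R7, block B is blue in 5 of the 6 SS rats, and the upper rows of block D are dark in Ct Grp7-R12, RSR Grp7-L2 and SS Grp8-L5.

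Block A held 103 genes from a mean of 5.01 to 12121 CPM in Ct. Genes with 40 or more exons were more frequent in it than among all genes ranked, though its median was 9 exons against 10. In it 11 genes (10.7%) had 40 or more exons, against 2.41% of those ranked, while 2 genes had a single exon. The level of the block in a rat is the median over its genes of log2(CPM + 1) minus the gene's mean in Ct. In Ct this level was lowest in Grp8-L11 at -0.97, followed by Grp7-L7 at -0.47, and highest in Grp7-R5 at 0.88. The SR rats lay between -0.48 and 0.71 with a median of 0.30. The 5 RSR rats stood at -0.82, -0.64, -0.51, 0.14 and 0.71. All 6 SS rats stood between 0.46 and 0.91 with an SD of 0.18, where SR had 0.43 and RSR 0.64. RSR overlapped SS through 1 rat, RSR Grp8-L9.

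The most abundant gene of the whole list, ENSRNOG00000016516, belonged to block A and was chosen for description after its values were seen. It spans 79326738 to 79437310 on the plus strand of chromosome 18, with 10 exons. It ran from 5629 to 19196 CPM in Ct (median 11760), from 9869 to 17460 in SR (median 13232) and from 11473 to 18712 in SS (median 15232). The RSR rats held 7721, 7798, 8140, 9829 and 13943 CPM. It thus took over 1% of some libraries, and 4 of 5 RSR rats lay below every SS rat. The gene most typical of block A by its correlation with the rest, ENSRNOG00000017206 on chromosome 9 (80150211 to 80167033, minus strand), ran from 71.4 to 258.3 CPM in Ct and from 180.4 to 334.9 in SS.

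The genes ENSRNOG00000061650 and ENSRNOG00000029586, both of block A, start 4512 bp apart on the plus strand of chromosome 8, at 116771982 and 116776494. ENSRNOG00000061650, described after its values were seen, was at 14.6 CPM in Ct Grp7-R5 and 1.51 in Ct Grp8-L11, the highest and lowest of Ct. Among RSR rats it was at 0.736, 1.95, 2.74, 8.83 and 12.7 CPM, and in SS it ran from 8.30 to 16.6. The RSR rats thus covered a wider range than SS and overlapped it only in the upper 2 values.

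Block B held 35 genes, from 5.12 to 519.7 CPM on average in Ct. In Ct its level was the mirror of block A at the ends, lowest in Grp7-R5 at -0.92 and highest in Grp8-L11 at 0.72. The SR rats lay between -0.90 and 0.30 with a median of -0.32. The RSR rats stood at -0.89, -0.52, 0.08, 0.30 and 0.57. In SS 5 rats stood between -1.45 and -1.13, below every rat of the other groups, and SS Grp7-L10 stood apart at -0.33.

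The gene of block B with the largest spread was ENSRNOG00000006146 on chromosome 6 (26603369 to 26624092, minus strand, 9 exons). It ran from 1.09 to 13.3 CPM in Ct with a median of 7.58, and from 1.08 to 7.59 in SR with a median of 2.46. The RSR rats held 1.38, 1.92, 8.67, 8.71 and 9.51 CPM. In SS 5 rats held at most 1.00 CPM and SS Grp7-L10 held 3.46. Its neighbour ENSRNOG00000006204 starts 39414 bp away on the plus strand and was named after its values were seen. It ran from 12.5 to 54.9 CPM in Ct, from 6.23 to 45.7 in SR, from 5.83 to 47.4 in RSR and from 1.76 to 24.2 in SS, where SS Grp7-L10 was again the highest. The next SS rat held 7.94 CPM of ENSRNOG00000006204. Of these neighbours only ENSRNOG00000006146 passed the rule for a rat that stands apart, given near the end.

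Block C held 14 genes and separated Ct Grp7-L7 (0.75) and Ct Grp8-L11 (0.74) from the other 4 Ct rats (-0.70 to -0.16). Of its genes 6 were in the top 200 of SR and none in that of RSR or SS. SR Grp8-R7 stood at 0.80, while the other SR rats lay between -0.27 and 0.11. Its most typical gene, ENSRNOG00000004537 on chromosome 13 (85818427 to 85868552, plus strand, 9 exons), held 89.3 and 87.6 CPM in the 2 high Ct rats and from 31.3 to 48.5 in the other 4.

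Block D held 13 genes and rested on 1 Ct rat. Its level was 2.35 in Ct Grp7-R12 and between -0.54 and -0.24 in the other 5 Ct rats, and without Ct Grp7-R12 none of the 13 genes stayed in the top 200. Some of them reached a mean of 5 CPM in Ct only through this rat and were then not ranked. ENSRNOG00000010378, for one, held 0.316 to 1.44 CPM in the other 5 Ct rats. The genes of block D were high in single rats of other groups. The level was 1.58 in RSR Grp7-L2 against -0.45 to -0.13 in the other RSR rats. In SS it was 1.94 in Grp8-L5 and 0.93 in Grp7-R1, and from -0.69 to 0.53 in the other 4. The 6 SR rats held no such rat and lay between -0.18 and 0.50. Among these genes 9 of 13 were in the top 200 of RSR and 11 of 13 in that of SS, but 2 of 13 in that of SR.

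Of the 20 genes with the largest SD in Ct, 7 belonged to block D. ENSRNOG00000001092 on chromosome 12 (943006 to 987551, plus strand, 5 exons) held 70.1 CPM in Ct Grp7-R12 and from 1.05 to 2.09 in the other Ct rats. It held 33.7 CPM in RSR Grp7-L2 against 1.67 to 2.98 in the other RSR rats. In SS it held 42.1 CPM in Grp8-L5, 16.6 in Grp7-R1 and from 0.955 to 5.22 in the others, and in SR it ran from 3.21 to 8.64. ENSRNOG00000026870 on chromosome 11 (32655616 to 32699382, plus strand, 6 exons) had the largest SD of the list among RSR rats (1.55). Its values were 82.4 CPM in Ct Grp7-R12 and 1.90 to 5.24 in the other Ct rats, and 50.1 in RSR Grp7-L2 and 1.86 to 7.81 in the other RSR rats. SS Grp7-R1, which is high in block D, is also the library with the highest mitochondrial share. The other rats high in block D had 11.9% (Ct Grp7-R12), 14.8% (RSR Grp7-L2) and 12.0% (SS Grp8-L5), within the range of the other libraries. What tissue the dissections held could not be checked against marker genes, and its part in block D was not tested.

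**Figure D3:**
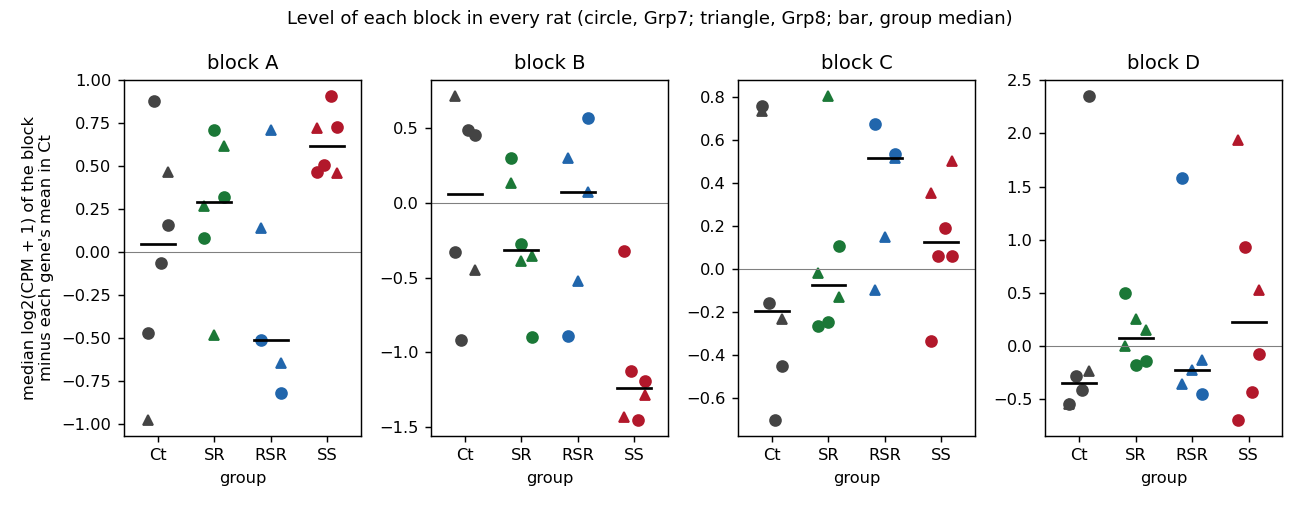
Level of each block in every rat, as the median over the block of log2(CPM + 1) minus each gene's Ct mean (y axis, a separate scale per panel). Circles are Grp7 rats, triangles Grp8 rats and bars group medians. All SS rats lie at or above 0.46 in block A, 5 of 6 SS rats lie at or below -1.13 in block B, and in block D a single rat of Ct (2.35) and of RSR (1.58) stands far above the rest of its group.

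The 35 genes outside any block fell in clusters of fewer than 8 genes, and some of them moved together. ENSRNOG00000060518 and ENSRNOG00000054945, neighbours on chromosome 14, had a correlation of 0.88 over the METH rats. Of the 35 genes 6 (17.1%) had a single exon, against 3.02% of all genes ranked. The gene with the largest SD of all, ENSRNOG00000005347, is one of these, a gene of 1 exon and 2102 bp on the minus strand of chromosome 3 (92288818 to 92290919). Its Ct values were 40.6, 43.2, 1.32, 37.9, 1.08 and 38.8 CPM. In SR it held 1.32 CPM in Grp7-L4 and from 43.5 to 84.2 in the other 5. The RSR rats ran from 38.1 to 82.7 and the SS rats from 37.6 to 86.5. Over the 23 rats 3 held between 1.08 and 1.32 CPM and 20 held between 37.6 and 86.5, with no rat between. The low rats were Ct Grp7-R6, Ct Grp8-L11 and SR Grp7-L4. No other gene of the list was split in this way, taken as a gap of at least 1.5 on the log2 scale with at least 3 rats on each side, a rule set after the values were seen.

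ENSRNOG00000029386 also fell to near 0 in single rats. It lies in the MHC interval, taken here as the first 6 Mb of chromosome 20 (3146856 to 3150852, plus strand, 8 exons). It was at 0.0871 CPM (2 counts) in Ct Grp7-R5 and between 16.0 and 26.0 in the other Ct rats. In SS it was at 0.0478 CPM (1 count) in Grp7-R2 and between 10.6 and 21.8 in the others. The SR rats ran from 8.21 to 24.2 and the RSR rats from 13.8 to 22.0. Its neighbour ENSRNOG00000000777, which starts 29251 bp away on the same strand with 8 exons, went the other way. It held 38.1 CPM in Ct Grp7-R5 and 12.6 to 21.8 in the other Ct rats, and 47.5 in SS Grp7-R2 and 16.6 to 33.3 in the other SS rats. The 2 rats with almost no reads of the first gene were thus the highest of their groups in the second. Genes of this interval can have near identical copies and differ in sequence from the reference, and reads counted only where they map uniquely can then be lost or shared, so these levels are uncertain. In all 4 of the 200 genes lay in the interval (2%), against 0.916% of all genes ranked.

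**Figure D4:**
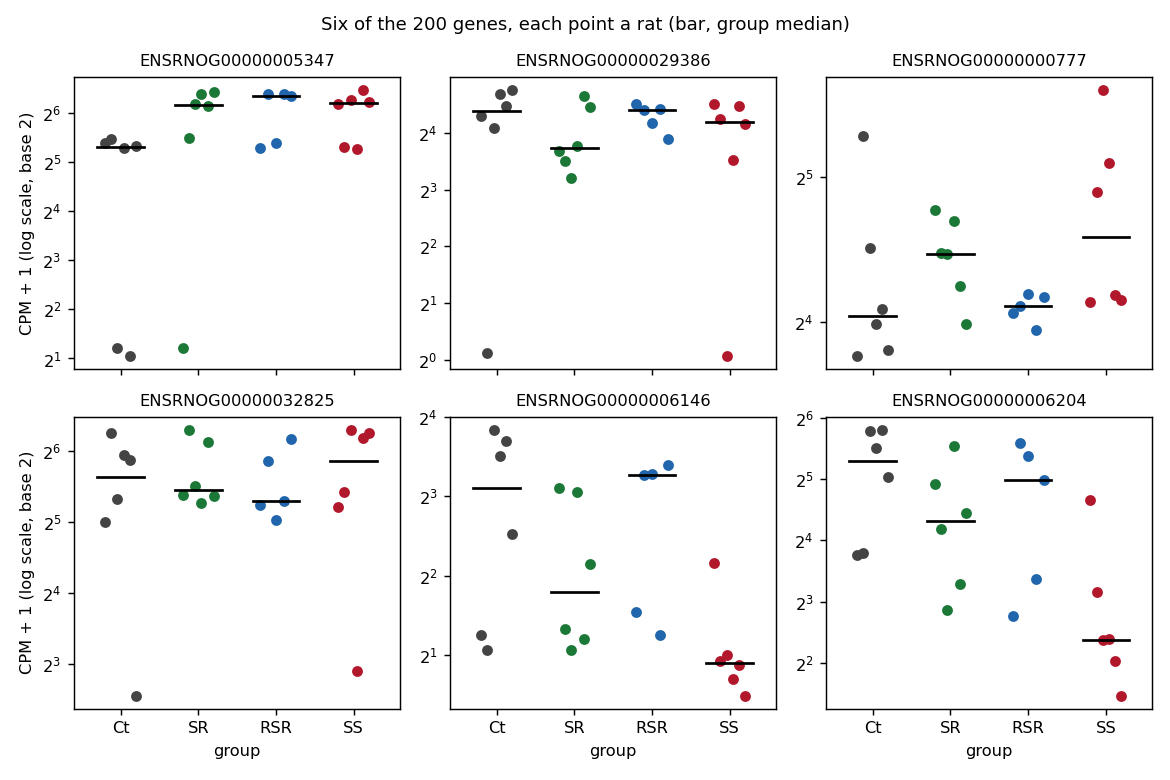
CPM + 1 on a log scale (base 2) of 6 of the 200 genes, with 1 point per rat and a bar at the group median. ENSRNOG00000005347 shows 2 Ct rats and 1 SR rat near 1 CPM and no rat between 1.32 and 37.6 CPM. In ENSRNOG00000029386 the low points are Ct Grp7-R5 and SS Grp7-R2, which are the high points of ENSRNOG00000000777. ENSRNOG00000006146 and ENSRNOG00000006204 are lowest in SS, with SS Grp7-L10 above the other 5.

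Other genes outside the blocks were low in single rats of 2 groups. ENSRNOG00000032825, a gene of 1 exon and 461 bp on chromosome 10 (38024477 to 38024937, minus strand), held 4.88 CPM in Ct Grp8-R11 and 30.9 to 75.3 in the other Ct rats. It held 6.45 CPM in SS Grp7-R9 and 36.2 to 77.6 in the other SS rats, and 31.6 to 77.7 in all SR and RSR rats. ENSRNOG00000047351, listed with 1 exon of 57 bp on chromosome 14 (46655342 to 46655398, plus strand), ran from 18.6 to 233.6 CPM in Ct, from 8.10 to 125.3 in SR, from 44.5 to 93.7 in RSR and from 9.59 to 98.0 in SS. A feature shorter than a read pair can share reads with what surrounds it, so its level is uncertain. ENSRNOG00000015159 on chromosome 1 (31734327 to 31777070, minus strand, 17 exons) was spread in all 4 groups, from 1.27 to 15.9 CPM in Ct, 1.69 to 15.3 in SR, 1.51 to 18.5 in RSR and 1.49 to 20.8 in SS.

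The first question between METH groups was whether rats that became resistant at the second footshock phase differed from rats that stayed sensitive. RSR and SS were compared with edgeR's quasi-likelihood test on the 17 METH rats only, so that the Ct rats, which chose the genes, did not enter. No gene of the list and no gene in all reached a Benjamini-Hochberg adjusted p under 0.05 (0% of 16146 genes called). The smallest adjusted p in the list was 0.0557. Below the threshold of an unadjusted p of 0.05 were 126 of the 200 genes, against 27.3% of all 16146 genes tested, which is 4414 genes. Among them 38 of the 200 were higher in RSR, where the background was 14.1%, and 88 were lower in RSR, where it was 13.2%. The median log2 fold change was -0.51 over the 200 genes and 0.00 over all genes, and the median absolute log2 fold change was 0.70 against 0.14. In this last measure the list also stood above all genes in SR vs SS (0.38 against 0.09) and SR vs RSR (0.39 against 0.09). For Grp8 vs Grp7 among METH rats it was 0.17 against 0.05. The genes, chosen for a wide spread, had a wide spread in METH rats too. A larger absolute fold change was therefore not particular to RSR vs SS.

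The 2 large blocks held nearly all of these genes and stood on opposite sides. In block A 85 of 103 genes had an unadjusted p under 0.05 with a lower level in RSR and none with a higher one, at a median log2 fold change of -0.78. In block B 33 of 35 genes did so with a higher level in RSR and none with a lower one, at a median of 1.20. Of the 27 genes of blocks C and D, 1 gene was below this threshold, and of the 35 genes outside the blocks 7 were. Both shares were under the 27.3% of all genes tested, so the excess of the list lay in blocks A and B. Genes of a block move together, so these counts stand for a few patterns and not for separate results. The values in RSR and SS did not overlap for 7 of the 200 genes (3.5%), where the background was 2.44%, near the share over all genes.

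The gene of the list with the smallest p, ENSRNOG00000051837 of block B (chromosome 14, 46136786 to 46153212, minus strand, 4 exons), held 7.14, 10.9, 15.9, 16.9 and 19.7 CPM in RSR and 4.49 to 9.06 in SS with a median of 5.35. The groups overlapped through RSR Grp7-L2 and SS Grp7-L10. Its log2 fold change was 1.29 with a standard error of 0.24 and an adjusted p of 0.0557 in edgeR's test. ENSRNOG00000021316 of block A (chromosome 10, 68173369 to 68184320, plus strand, 7 exons) was lower in every RSR rat than in every SS rat, with 28.5, 30.5, 32.9, 35.1 and 39.7 CPM in RSR and 46.0 to 72.0 in SS. Its log2 fold change was -0.69 with a standard error of 0.15, and edgeR gave the same adjusted p of 0.0557. ENSRNOG00000011623, outside the blocks (chromosome 2, 41570597 to 41785792, minus strand, 6 exons), held 13.2, 14.9, 15.7, 16.7 and 21.4 CPM in RSR and 8.95 to 10.9 in SS, again without overlap.

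The number of genes called in RSR vs SS depended on single rats. RSR Grp8-L9 stood with SS in block A, and without it 122 of the 200 genes passed the adjusted threshold in edgeR, beside 2977 of 16287 genes in all. Without SR Grp8-R7, which enters the fit but neither of the groups compared, 22 genes of the list passed, beside 521 in all. Without SS Grp7-L10 47 did, beside 1526 in all. Without SS Grp7-R1, the library with the high mitochondrial share, 118 genes of the list had an unadjusted p under 0.05 (24.6% of all genes) and none an adjusted one. Of the 103 genes of block A, 54 were lower in RSR at an unadjusted p under 0.05 without RSR Grp8-R1 and 56 without RSR Grp7-R7. Over all genes 22.4% and 17.8% were below this p in these fits, in either direction. Without RSR Grp7-L2 1 gene of the list passed the adjusted threshold, beside 1 in all. DESeq2 on the same 17 rats called 65 genes of the list at an adjusted p under 0.05 and 1746 in all. With the Grp number as a covariate 87 of 103 genes of block A were lower in RSR and 32 of 35 of block B higher at an unadjusted p under 0.05, with medians of -0.81 and 1.25. The rats of 1 Grp number by themselves are fewer and in other proportions. Among Grp7 rats alone (2 RSR, 4 SS) block A had a median log2 fold change of -1.46 with 92 of 103 genes lower in RSR at an unadjusted p under 0.05, and among Grp8 rats alone (3 RSR, 2 SS) the median was -0.35 with 7 of 103. For block B the median was 1.12 with 10 of 35 genes higher in RSR in Grp7 and 1.66 with 31 of 35 in Grp8. The direction of both medians was the same in Grp7 and Grp8, but the counts were not alike. Over all genes the share at an unadjusted p under 0.05, in either direction, was 26.7% in Grp7 alone, 9.49% in Grp8 alone and 25.2% with the covariate. The count of block A in Grp8 was thus under the share over all genes, and that of block B in Grp7 was near it.

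**Figure D5:**
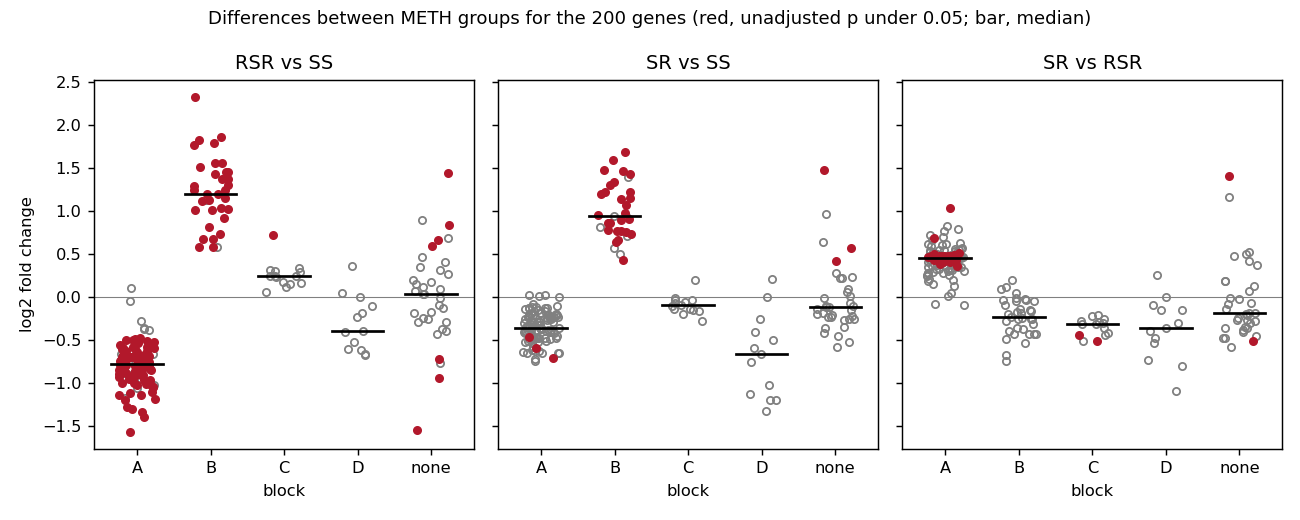
Log2 fold changes of the 200 genes between METH groups by block, from the edgeR fit of the 17 METH rats. Each point is a gene, filled red where the unadjusted p is under 0.05, and the bar is the block median. In RSR vs SS block A lies below 0 (median -0.78) and block B above (1.20), in SR vs SS block B lies above 0 (0.94), and in SR vs RSR block A lies above 0 (0.45). No point had an adjusted p under 0.05.

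SR and SS, the rats that were resistant or sensitive in both phases, were compared in the same fit and share the SS rats with the comparison above. No gene of the list had an adjusted p under 0.05 (0% of all genes called), and the smallest was 0.470. At an unadjusted p under 0.05 there were 34 of the 200 genes, against 10% of all genes (1617 of 16146). Of these 31 were higher in SR (5.82% of all genes) and 3 lower (4.2%). Block B again held most of them, with 28 of 35 genes higher in SR at a median log2 fold change of 0.94, while block A had 3 of 103 genes lower in SR at a median of -0.36. The 3 of 103 genes of block A were a smaller share than the 4.2% of all genes lower in SR. This count of block A was 23 in a fit of only the SR and SS rats. With each rat left out it ran from 0 (without SS Grp8-L5) to 9 (without SR Grp7-R4). Over all genes the share at an unadjusted p under 0.05, in either direction, was 9.81% and 12.2% in these fits. The median of block A was -0.22 without SR Grp8-R7. In ENSRNOG00000004890 of block B (chromosome 7, 105353913 to 105592804, minus strand, 18 exons) the SR rats ran from 5.62 to 10.7 CPM with a median of 7.39 and the SS rats from 4.28 to 5.65 with a median of 4.76. The groups touched at 5.6 CPM, and the log2 fold change was 0.64 with a standard error of 0.15 and an adjusted p of 0.470 in edgeR. In a fit of only these 12 rats 56 genes of the list had an unadjusted p under 0.05, against 11.2% of all genes. Within Grp7 (3 SR, 4 SS) the median of block B was 0.69 with 9 of 35 genes, and within Grp8 (3 SR, 2 SS) it was 1.36 with 29 of 35. Over all genes the share at an unadjusted p under 0.05 was 4.96% in Grp7 and 9.2% in Grp8.

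SR and RSR, both resistant at the end, were compared in the same fit. No gene of the list had an adjusted p under 0.05 (0% of all genes called), with 0.765 as the smallest. At an unadjusted p under 0.05 there were 28 of the 200 genes, against 6.09% of all genes (984 of 16146). Of these, 25 were higher in SR, where the background was 3.49%, and 24 of the 25 belonged to block A, at a median log2 fold change of 0.45 over the 103 genes. ENSRNOG00000018603 of block A (chromosome 1, 219414915 to 219422268, minus strand, 8 exons) ran from 82.1 to 136.1 CPM in SR with a median of 104.8, and held 61.2, 67.5, 74.7, 89.8 and 108.1 CPM in RSR, so the groups overlapped. Its log2 fold change was 0.42 with a standard error of 0.13 and an adjusted p of 0.765 in edgeR. Without RSR Grp8-L9 there were 95 genes of the list at an unadjusted p under 0.05 (14.6% of all genes), and without RSR Grp7-R7 there were 9 (2.96%). There were 54 without SR Grp8-R7 (11.6% of all genes). Without SR Grp7-R4, SR Grp8-R8, RSR Grp8-R1 or SR Grp7-R10 there were 12 to 16 (3.6% to 4.77%). A fit that also held the Ct rats gave 5 (4.29%). With the Grp number as a covariate 23 of 103 genes of block A were higher in SR, where 5.48% of all genes were below this p in either direction. The median of block A was 1.16 in Grp7 (3 SR, 2 RSR), with 89 of 103 genes, and 0.01 in Grp8 (3 SR, 3 RSR), with 0 of 103. Over all genes the share at an unadjusted p under 0.05 was 18.8% in Grp7 and 1.72% in Grp8.

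Against Ct the choice of the genes on the Ct values bears on every count, so the counts are listed for completeness and are no test of these genes. In a fit of all 23 rats no gene of the list had an adjusted p under 0.05 in SS vs Ct, SR vs Ct or RSR vs Ct (0% of all genes called in each), and the smallest was 0.0615, in SS vs Ct. At an unadjusted p under 0.05 there were 53 genes of the list in SS vs Ct, where the background was 21.4% of 16275 genes, 6 in SR vs Ct, where it was 4.92%, and 5 in RSR vs Ct, where it was 4.63%. Leaving out single rats moved these numbers and the share over all genes. Without Ct Grp7-R5 there were 123 in SS vs Ct (29.4% of all genes) and 17 in SR vs Ct (7.85%). In RSR vs Ct there were 24 without Ct Grp8-L11 (7.44%) and 23 without RSR Grp8-L9 (6.02%).

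The Grp number in the rat code was tested as a difference of its own in the 17 METH rats, with group in the fit. At an adjusted p under 0.05 none of the 200 genes and 0% of all genes were called. At an unadjusted p under 0.05 there were 2 of the 200 genes, against 1.94% of all genes (314 of 16146), and between 1 and 12 with each rat left out. There were 12 without RSR Grp7-L2 (3.36% of all genes) and 5 without RSR Grp7-R7 (3.68%) or SR Grp7-R10 (1.98%). There was 1 without SS Grp7-R1 (1.89%) or SS Grp8-L5 (1.45%). The 2 genes of the main fit were ENSRNOG00000055608, with a log2 fold change of 1.05 and a standard error of 0.34 (higher in Grp8), and ENSRNOG00000000777, at -0.40 with a standard error of 0.18. ENSRNOG00000055608 on chromosome 1 (81159107 to 81163689, minus strand, 3 exons) held 2.42 and 3.91 CPM in the 2 Grp7 rats of RSR and 15.9, 16.2 and 23.5 in the 3 Grp8 rats. In SS it held 2.44 CPM in Grp7-R2 and 14.3 to 21.9 in the other 5, in SR 13.6 to 25.8, and in Ct from 2.46 to 33.2, with low and high rats in Grp7.

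The genes of the list lay on 20 chromosomes. With 22 each, chromosomes 1 and 10 held the most, which is 1.53% and 2.23% of their ranked genes, and chromosome 11 had the highest share, with 9 of 292 (3.08%). In all 44 genes started within 1 Mb of another gene of the list, forming 25 neighbouring pairs, of which 9 had a correlation above 0.7 over the METH rats and 1, ENSRNOG00000029386 with ENSRNOG00000000777, below -0.7. The median over the 25 pairs was 0.40, and most pairs above 0.7 were of the same block, whose genes correlate wherever they lie. How many genes of a random list of this size lie so close was not tested. Exons of 11 genes (5.5%) overlapped another gene on the other strand. The strand setting of the counting is not given in the sources used here, so the levels of these 11 are uncertain.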

How the data were processed

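Dorsal striatal RNA from 23 rats was analysed from raw counts deposited by the authors. By the paper's methods and the submitters' processing notes, the authors used bcl2fastq 2.17 for demultiplexing, Trimmomatic 0.36 for trimming, STAR 2.5.2b for mapping to Rnor6.0, and featureCounts of Subread 1.5.2 to count reads that mapped uniquely to exons. The deposited counts are not normalized. The authors compared groups with DESeq2.

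CPM, SDs, blocks (average linkage on 1 minus r in Ct, cut at 0.3) and block levels were computed here in Python 3.11.15, and contrasts with edgeR 4.0.16 in R 4.3.3 (TMM, filterByExpr with minimum counts of 10 and 15 in total, quasi-likelihood test, Benjamini-Hochberg adjustment over all genes tested). Standard errors are the log2 fold change over the root of F. Each library came from its own rat. Fits were tested on simulated data in which genes were drawn independently of each other. Genes of a block move together, so that test does not bear on them. The alternatives were DESeq2 1.42.0, RLE factors, no filter, the Grp number as a covariate, fits of all 23 rats or of 2 groups, each rat left out, and, added after the data were seen, each Grp number by itself.

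The genes and lists were chosen with earlier results of these data known. Named were, by rule, the 20 genes with the largest Ct SD, the 3 smallest p per contrast, the 5 largest SDs per METH group and 5 typical genes per block. For want of symbols only some of these are printed, with at most 2 higher and 2 lower per contrast. Marker and gene lists, which use symbols, were not analysed here, and no sequence is printed.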

Additional observations from a re-analysis of the deposited data

Results flagged for a closer look

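Each block level and each of the 40 genes drawn on for the text was checked in the 4 groups for a rat whose distance to the nearest other rat, as a share of the range of its group (levels and log2(CPM + 1)), passed Dixon's critical value (0.710 for 5 rats and 0.625 for 6). Of 176 such sets 28 had such a rat. Chance gives about 1 in 20, or 8.8, and since Ct chose the genes and genes of a block move together, the number has no test. By group 10 were in Ct, 2 in SR, 8 in RSR and 8 in SS.

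Ct Grp7-R12 stood apart in block D (level 2.35), with 70.1 CPM of ENSRNOG00000001092, 59.0 of ENSRNOG00000039107, 82.4 of ENSRNOG00000026870, 43.6 of ENSRNOG00000023340, 30.3 of ENSRNOG00000010378, 23.3 of ENSRNOG00000011648 and 68.1 of ENSRNOG00000016957. RSR Grp7-L2 stood apart in the same block (level 1.58) and in 5 of these genes, with 33.7 CPM of ENSRNOG00000001092, 31.9 of ENSRNOG00000039107, 27.5 of ENSRNOG00000023340, 14.3 of ENSRNOG00000010378 and 11.4 of ENSRNOG00000011648. In SS the rats high in block D, Grp8-L5 and Grp7-R1, were 2 and did not pass.

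SS Grp7-L10 stood above the other SS rats in block B (level -0.33), with 3.46 CPM of ENSRNOG00000006146 and 9.06 of ENSRNOG00000051837. SR Grp8-R7 stood apart in block C (level 0.80).

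Low outside the blocks were SR Grp7-L4 in ENSRNOG00000005347 (1.32 CPM), Ct Grp7-R5 and SS Grp7-R2 in ENSRNOG00000029386 (0.0871 and 0.0478 CPM), Ct Grp8-R11 and SS Grp7-R9 in ENSRNOG00000032825 (4.88 and 6.45 CPM), SS Grp7-R2 in ENSRNOG00000055608 (2.44 CPM), SS Grp8-R10 in ENSRNOG00000047351 (9.59 CPM), SS Grp7-R9 in ENSRNOG00000011623 (8.95 CPM) and RSR Grp7-R7 in ENSRNOG00000027839 (229.3 CPM). RSR Grp8-R1 was high in ENSRNOG00000028622 (4.18 CPM).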

How the results depend on the processing

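The depth resolves the spread of these genes, but with 5 or 6 rats a group 1 rat can set a count, and block membership makes the counts move in steps. No paired analysis was possible because the groups have no rat code in common. The cause of the differences between settings was not tested.

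Of the 200 genes, ranking kept 109 with a mean of at least 1 CPM, 67 with at least 20 CPM and 119 by the median absolute deviation, and between 146 and 181 when a Ct rat was left out. With a pseudocount of 5 the median SD was 0.35 in SR, 0.46 in RSR and 0.27 in SS. With each rat of a group left out, it ran from 0.35 to 0.51 in SR, from 0.51 to 0.66 in RSR and from 0.32 to 0.39 in SS, and the number in the top 200 from 60 to 104 in SR, from 86 to 102 in RSR and from 52 to 69 in SS.

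At an adjusted p under 0.05, DESeq2 called 65 genes of the list in RSR vs SS (1746 in all) and 24 in SS vs Ct (884 in all), where edgeR called 0. Grp7 rats alone gave 90 in RSR vs SS (1342 in all). Grp8 rats alone gave 8 there (57 in all), 5 in SR vs SS (36 in all) and 6 in SS vs Ct (86 in all). With each rat left out, the number ran from 0 to 122 in RSR vs SS (2977 in all at 122) and from 0 to 38 in SS vs Ct. In SS vs Ct it was 38 without Ct Grp7-R5 (1377 in all) and 28 without SS Grp7-L10 (1299 in all).

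At an unadjusted p under 0.05, fits of only the 2 groups gave 56 genes in SR vs SS (11.2% of all genes). A fit of all 23 rats gave 5 in SR vs RSR (4.29% of all genes). Grp7 rats alone gave 17 in SR vs SS (4.96% of all genes), 113 in SR vs RSR (18.8%), 30 in SS vs Ct (12.1%) and 78 in RSR vs Ct (9.07%). Grp8 rats alone gave 53 in RSR vs SS (9.49%), 6 in SR vs RSR (1.72%), 13 in SR vs Ct (3.08%) and 1 in RSR vs Ct (2.7%). With each rat left out, the number ran from 87 to 143 in RSR vs SS, 25 to 44 in SR vs SS, 9 to 95 in SR vs RSR, 39 to 123 in SS vs Ct, 4 to 17 in SR vs Ct, 1 to 24 in RSR vs Ct and 1 to 12 in Grp8 vs Grp7, the last without RSR Grp7-L2. Over all genes the shares in the fits that gave these ends moved too. In the same order they were 17.8% and 34.1%, 7.53% and 15%, 2.96% and 14.6%, 15% and 29.4%, 4.63% and 7.85%, 4.35% and 7.44%, and 1.89% and 3.36%. In total 314 of 366 values of these summaries stayed on their side or within 1.5 times. Many of these were counts at an adjusted p that stayed at 0, so the share is no measure of stability. The 347 alternative fold changes were those of genes picked for the smallest p of a contrast, Ct contrasts included. None changed sign, which says little, because the pick came from the same rats.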

Other observations

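Left out by the rule for choosing the genes, 6 of 349 genes on the X chromosome with a mean of at least 5 CPM in Ct, 2 of the 3 listed identifiers at that level and 0 of 23 mitochondrial genes had an SD in Ct at least as large as that of the gene at rank 200.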
